A study of Mus musculus with 8 samples.

Results

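Axin2, Rnf43, Znrf3, Nkd1, Sp5, Lgr5, Notum, Dkk1, Apcdd1 and Tnfrsf19 are direct target genes of Wnt/beta-catenin signalling, and most of their products restrain the pathway that switches them on. The 10 genes were found through the RefSeq accession that the array gives for each probe, among 17114 named genes tested. They were represented by 11 of the 41174 probes left after control spots were set aside, Dkk1 by 2 probes and each of the others by 1. All 11 were well above background on 8 of 8 arrays in both RNAs.

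The RNA was total RNA of whole embryonic mouse kidneys at E13.5, a mid-gestation stage when the ureteric bud is branching into the surrounding mesenchyme. The first group was the mutant, UB HDAC1,2-/-, in which the histone deacetylases HDAC1 and HDAC2 are deleted in the ureteric bud (UB), and the second was wild type. Both groups were of a CD1 C57BL/6 mix and carried no other named allele or agent. The promoter that drives the deletion is not given in the sources used here. The labels name no deletion in other kidney cells, and these data do not show whether those cells kept their own alleles. There were 4 biological replicates, each 1 mutant and 1 wild type RNA hybridised together on 2 two-colour Agilent arrays with the Cy3 and Cy5 dyes exchanged, which gave 8 arrays. That is the design of the sample labels. The series' own design text instead speaks of swapped dyes on 2 of 4 arrays, and the sample labels were followed. Whether a replicate was 1 animal or a pool is not stated, so the tests measure only the spread between these RNAs. A whole-kidney ratio cannot tell fewer cells of a type from less RNA per cell.

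In the canonical pathway a Wnt ligand binds a Frizzled receptor together with Lrp5 or Lrp6, the destruction complex of Axin, Apc and Gsk3 kinases stops marking beta-catenin for degradation, and beta-catenin activates genes with TCF/LEF factors. The targets described here close the loop at several levels, from the ligand outside the cell to the destruction complex inside it. In the developing kidney, beta-catenin signalling acts in the ureteric bud and in the nephron progenitors that Wnt ligands of the bud induce to form epithelium.

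TCF/LEF factors bind a short core sequence, so the promoter windows of the members show whether these letters lie next to the start sites. RefSeq windows (build GRCm38.p6) of 300 bases, 250 before to 50 after a start site, were read for 6 of the 10 genes. Member windows on 1 chromosome are not reported here and are not among the member counts. The motif searched was CTTTGA on both strands (TCAAAG on the other), which 16.0% of all 32851 windows hold. Of the 8 member windows read 3 held it. The windows of Sp5 (chr2:70474673-70474972, plus strand) and Dkk1 (chr19:30549447-30549746, minus strand) are shown because each held it 2 times. Those of Axin2 (chr11:108920099-108920398, plus strand) and Rnf43 (chr11:87662837-87663136, plus strand, 1 of its 2 windows) are shown because these genes had the smallest p-values of the set and neither holds it. Each sequence reads 5′ to 3′ on the gene's strand, with the motif in capitals.
Sp5: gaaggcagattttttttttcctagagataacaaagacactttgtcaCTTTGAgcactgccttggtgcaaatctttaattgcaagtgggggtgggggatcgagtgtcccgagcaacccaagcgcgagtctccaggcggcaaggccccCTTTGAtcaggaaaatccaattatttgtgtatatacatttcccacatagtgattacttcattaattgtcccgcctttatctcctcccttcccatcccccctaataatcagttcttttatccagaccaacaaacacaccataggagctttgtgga
Dkk1: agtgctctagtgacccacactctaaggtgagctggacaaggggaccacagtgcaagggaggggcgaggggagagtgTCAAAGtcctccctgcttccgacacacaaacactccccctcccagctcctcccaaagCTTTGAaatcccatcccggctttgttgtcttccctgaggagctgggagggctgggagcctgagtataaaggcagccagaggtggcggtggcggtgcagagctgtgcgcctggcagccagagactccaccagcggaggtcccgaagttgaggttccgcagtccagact
Axin2: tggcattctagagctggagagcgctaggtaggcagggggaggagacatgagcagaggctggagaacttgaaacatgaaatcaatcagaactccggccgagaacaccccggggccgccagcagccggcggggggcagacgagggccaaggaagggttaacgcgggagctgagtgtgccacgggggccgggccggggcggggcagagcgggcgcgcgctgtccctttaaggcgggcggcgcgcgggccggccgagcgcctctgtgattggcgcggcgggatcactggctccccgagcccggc
Rnf43: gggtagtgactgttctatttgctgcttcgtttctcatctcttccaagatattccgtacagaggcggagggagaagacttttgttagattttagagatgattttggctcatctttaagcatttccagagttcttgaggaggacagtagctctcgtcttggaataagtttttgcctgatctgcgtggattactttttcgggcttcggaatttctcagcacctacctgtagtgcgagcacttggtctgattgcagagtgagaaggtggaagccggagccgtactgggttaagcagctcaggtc
Counted in bases from the start site, the motif of Sp5 began at -204 and -104, both on the gene's strand. In Dkk1 it began at -174 on the opposite strand and at -117 on the gene's strand. The third window with a match was 1 of the 2 of Tnfrsf19 (chr14:61037938-61038237, minus strand), at -201 on the opposite strand. The other window of Rnf43, the other of Tnfrsf19 and that of Nkd1 held none. These matches describe letters within short windows and show no binding.

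Each value below is a log2 ratio with the RNA labelled mutant in the numerator and that labelled wild type in the denominator, from the scanner's processed signals, averaged over the 2 dye orientations of a replicate. The direction rests on the dye labels alone. In the authors' deposited table of 496 entries, 414 equal the mean ratio with its sign turned within 0.01 and 0 equal it as labelled. All 309 entries that fall on a single probe have the opposite sign there. Hdac2, 1 of the deleted genes, stood at 0.60, 0.60, 0.74 and -0.61 in replicates 1 to 4, a mean of 0.33 ± 0.63 (SD, n = 4; exact sign-flip permutation test, p = 0.5). It was thus higher in the RNA labelled mutant in 3 of 4 replicates, which goes against that label. Hdac2 was above 0 on 6 of 8 arrays. Where its probe lies relative to the deleted part of the gene is not known here. Hdac2 of other kidney cells was not measured apart, so the probe does not settle the labels. Hdac1 was not analysed here. Every direction below is therefore that of the labels, and if the labels were exchanged every ratio would change sign.

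Replicate 2 stood apart from the others. The middle 50% of all probes spanned 0.729 there on the log2 scale, against 0.204, 0.239 and 0.261 in replicates 1, 3 and 4. The members are given in all 4 replicates, so that its share in their means can be seen. Between 79.2% and 97.1% of spots per array were well above background and none was saturated. Replicates 1 and 2 were on slide 1 and replicates 3 and 4 on slide 2.

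The feedback targets were mostly higher in the RNA labelled mutant, but no member passed the test across all probes. With limma over the 39520 probes that passed the filter on dim spots, the smallest adjusted p of a member was 0.229, and 7 probes in all (0.0177%) passed 0.05. At an unadjusted p under 0.05, 5 of 11 member probes were higher (Rnf43, Axin2, Notum, Sp5 and Tnfrsf19) and 0 lower, where 3.15% of all probes were higher. Ratios were above 0 in 4 of 4 replicates for 6 of 11 member probes, against 10.7% of all probes. The same 5 genes were above 0 on 8 of 8 arrays, against 2.24% of all probes. The mean was above 0 for 10 of 11, where 54.0% of all probes lay above 0. The members were chosen with earlier results of these data known, so these shares describe the set and do not test it. The same holds for the pathway lists below. The median over the member probes was 0.31, with a range of -0.10 to 0.68, and the median over all probes was 0.02. Their own spread was like that of the array, with a median SD of 0.28 against 0.26.

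**Figure D1:**
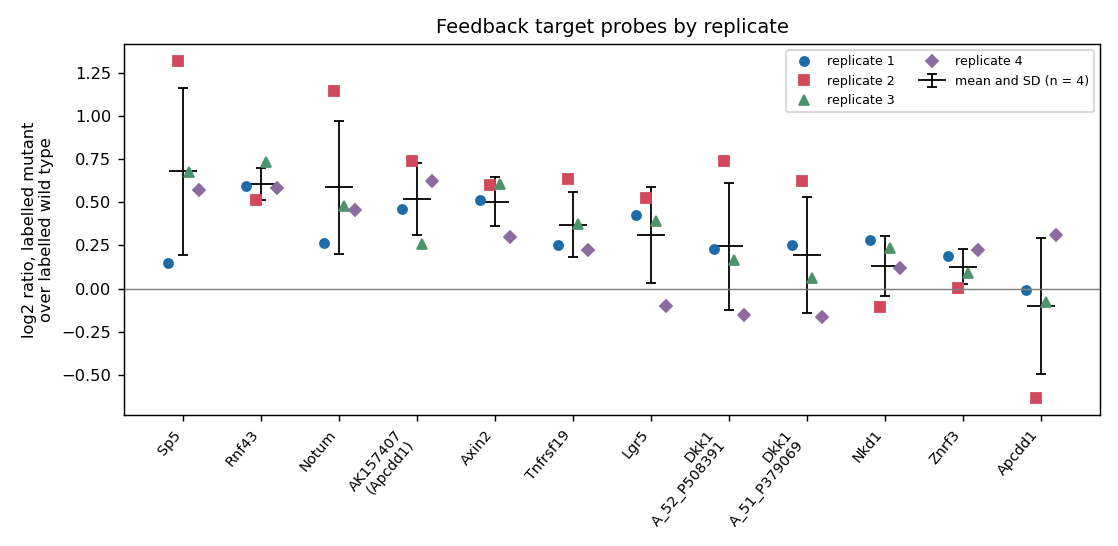
The vertical axis is the log2 ratio, labelled mutant over labelled wild type, and each symbol is 1 replicate of 1 probe, with the mean and SD over 4 replicates as bars. Rnf43 and Axin2 are close together in all 4 replicates, Sp5 and Notum owe their highest points (1.32 and 1.15) to replicate 2, and Apcdd1 has its lowest there.

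Of the inhibitors that act on the Wnt receptors at the cell surface, Rnf43 had the steadiest ratio of the whole set. Rnf43 is a membrane ubiquitin ligase that removes Frizzled receptors from the cell surface. Its processed signal, here and below the geometric mean of 2 arrays, was 1193, 1123, 1106 and 1337 in the RNAs labelled wild type and 1798, 1603, 1837.5 and 1999 in those labelled mutant, in replicates 1 to 4. Every RNA labelled mutant was above every RNA labelled wild type. Only Rnf43 and Axin2 among the members had groups that did not overlap. Of all probes, 0.420% had every RNA labelled mutant above every RNA labelled wild type, and the share separated in either direction was not counted. Its log2 ratios were 0.59, 0.51, 0.73 and 0.58, a mean of 0.60 ± 0.09 (SD, n = 4), or 1.52-fold. All 8 arrays lay between 0.38 and 0.78. The exact sign-flip permutation test gave p = 0.125, the smallest that 4 replicates allow, and limma gave an adjusted p of 0.229. The call turns on how arrays are weighed. With the 8 arrays fitted singly and the replicate as a block, limma's adjusted p was 0.0302, and with array weights it was 0.00964. The block fit counts both dye orientations of the same RNAs, and the array weights were 4.07 for replicate 3 and 0.18 for replicate 2. In 17 of 19 alternative settings the call was unchanged. Among these, limma's adjusted p was 0.451 with slide as a term and 0.902 without replicate 3.

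Znrf3, the close relative of Rnf43 with the same activity on Frizzled, did not stand as high. Its signal was 1305, 778, 1425 and 1318 in the RNAs labelled wild type and 1489, 779, 1517 and 1539 in those labelled mutant. In replicate 2 both RNAs were low on 1 array (435 labelled mutant, 476 labelled wild type) and not on the array with the dyes exchanged (1395 and 1271). Its ratios were 0.19, 0.0023, 0.090 and 0.22, a mean of 0.13 ± 0.10 (SD, n = 4; limma, adjusted p = 0.757), and 26.1% of all probes were at least as high. The ratios were above 0 in 4 of 4 replicates and on 7 of 8 arrays, and the exact permutation test gave p = 0.125, as for Rnf43. The ratio of Rnf43 exceeded that of Znrf3 by 0.40, 0.51, 0.64 and 0.36 in the 4 replicates, a mean of 0.48 ± 0.13 on the log2 scale (SD, n = 4). This difference had 1 direction in 4 of 4 replicates, and the exact permutation test gave p = 0.125, again the smallest possible. Each gene was read by 1 probe, and whether the 2 probes respond alike was not tested.

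Lgr5, a receptor for R-spondins, which keep Rnf43 and Znrf3 away from Frizzled, differed by replicate. Its signal was 560, 436, 768 and 907 in the RNAs labelled wild type and 751, 626, 1009 and 845 in those labelled mutant. It was higher in the RNA labelled mutant in replicates 1 to 3 and lower in replicate 4, with ratios of 0.42, 0.52, 0.39 and -0.10. The mean was 0.31 ± 0.28 (SD, n = 4; limma, adjusted p = 0.757). Within slide 1 the mean was 0.47 and within slide 2 it was 0.15.

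Inside the cell, Axin2 was higher in the RNA labelled mutant in every replicate, as Rnf43 was. Axin2 is an inducible scaffold of the destruction complex and a widely used readout of beta-catenin activity. Its signal was 812, 737, 762 and 1103 in the RNAs labelled wild type and 1158, 1116, 1158 and 1359 in those labelled mutant, so that the groups did not overlap. The ratios were 0.51, 0.60, 0.60 and 0.30, a mean of 0.50 ± 0.14 (SD, n = 4), or 1.42-fold. Replicate 4 was the lowest, yet each of 8 arrays lay above 0, between 0.20 and 0.79. Limma's adjusted p was 0.426 and the exact permutation p was 0.125. With array weights the adjusted p from limma was 0.0291, and with the replicate as a block over the 8 arrays it was 0.0951. In 18 of 19 alternative settings the call was unchanged, with limma's adjusted p at 0.645 with slide as a term.

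Nkd1, an inducible inhibitor that binds Dishevelled upstream of the destruction complex, had no single direction. Its signal was 5983, 5259, 5124 and 8612 in the RNAs labelled wild type and 7267, 4888, 6038 and 9359 in those labelled mutant. The ratios were 0.28, -0.11, 0.24 and 0.12, a mean of 0.13 ± 0.17 (SD, n = 4; limma, adjusted p = 0.757). They were above 0 on 5 of 8 arrays, with replicate 2 below 0 in both dye orientations. The mean was 0.21 without replicate 2, 0.084 without replicate 1, and 0.27 after normexp and loess without replicate 2.

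**Figure D2:**
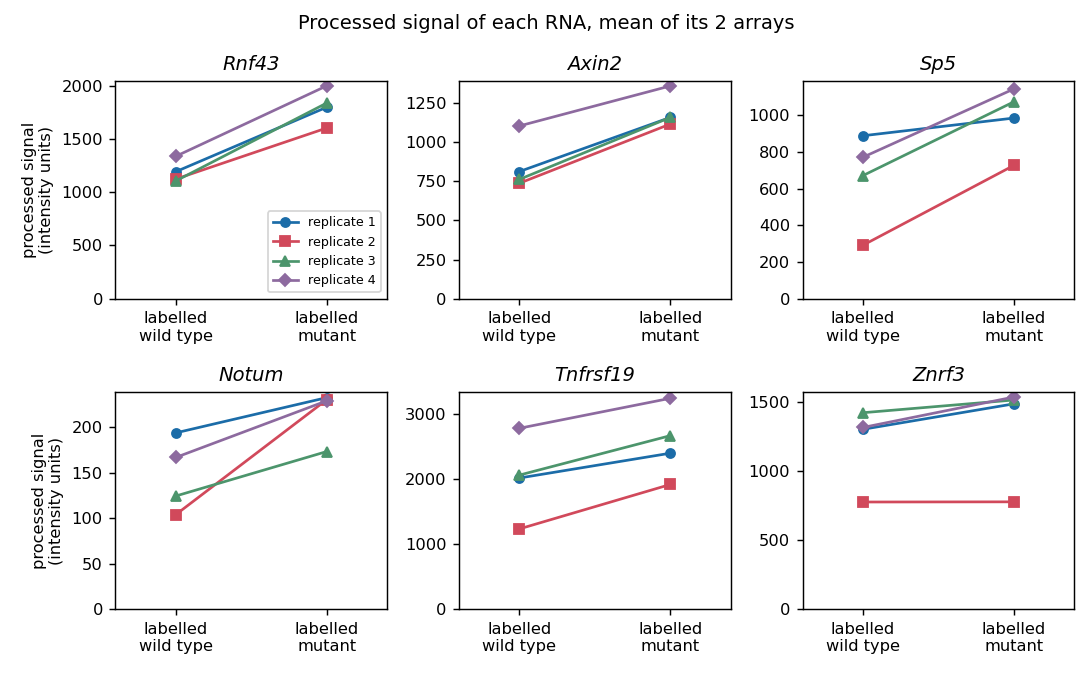
Each panel shows 1 probe, with the processed signal in intensity units on a vertical axis that starts at 0 and a line joining the RNAs labelled wild type and mutant of a replicate; each point is the geometric mean of 2 arrays. All 4 lines end higher on the right for Rnf43, Axin2, Sp5, Notum and Tnfrsf19, the Znrf3 line of replicate 2 is flat (778 and 779), and the Sp5 and Notum lines of replicate 2 start lowest.

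Among the secreted and membrane antagonists, Notum, an enzyme that strips the lipid from Wnt ligands, was higher in the RNA labelled mutant in 4 of 4 replicates. Its signal was 193, 104, 124 and 167 in the RNAs labelled wild type and 232, 230, 173 and 229 in those labelled mutant. The ratios were 0.26, 1.15, 0.48 and 0.46, a mean of 0.59 ± 0.39 (SD, n = 4; limma, adjusted p = 0.672; exact permutation p = 0.125), or 1.50-fold. Replicate 2 was the highest, and 1 of its arrays reached 1.62. The mean was 0.40 without replicate 2, 0.35 after normexp background correction and loess normalization of the scanner's median signals, and 0.24 with both.

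Dkk1, a secreted antagonist that binds Lrp5 and Lrp6, gave nearly the same ratios with its 2 probes. Probe A_51_P379069 stood at 0.25, 0.62, 0.064 and -0.16, a mean of 0.19 ± 0.33 (SD, n = 4). Probe A_52_P508391 stood at 0.23, 0.74, 0.17 and -0.15, a mean of 0.25 ± 0.37 (SD, n = 4). Both were highest in replicate 2 and below 0 in replicate 4, and limma gave an adjusted p of 0.757 for each. Without replicate 2 the means were 0.052 and 0.081, and without replicate 4 they were 0.31 and 0.38. The dye mattered, and in opposite ways. With the RNA labelled mutant in Cy5 the first probe read 0.42, 0.90, 0.56 and 0.23, and with it in Cy3 0.089, 0.34, -0.43 and -0.56. The second probe read 0.059, 0.42, -0.052 and -0.39 with Cy5 and 0.40, 1.05, 0.38 and 0.095 with Cy3. The averages over both orientations came closer to each other than single arrays did. Within slide 2 the means of the 2 probes were -0.049 and 0.0081.

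Apcdd1, a membrane-bound inhibitor of Wnt signalling, was the only member with a mean below 0. Its RefSeq probe read 138, 219, 130 and 102 in the RNAs labelled wild type and 138, 141, 123 and 127 in those labelled mutant. The ratios of -0.0055, -0.63, -0.075 and 0.31 had no common direction, with a mean of -0.10 ± 0.39 (SD, n = 4; limma, adjusted p = 0.810). In replicate 2 the array with the RNA labelled mutant in Cy5 read -1.15 and that with it in Cy3 -0.11. Without replicate 2 the mean was 0.076. Another probe, A_51_P175018 for the accession AK157407, is outside the RefSeq match, but the authors' deposited table names it APCDD1. That probe read 5712, 3587, 6852 and 6507 in the RNAs labelled wild type and 7862, 5986, 8188 and 10027.5 in those labelled mutant. Its ratios were 0.46, 0.74, 0.26 and 0.62, a mean of 0.52 ± 0.21 (SD, n = 4; limma, adjusted p = 0.487), above 0 on 8 of 8 arrays. The 2 probes thus disagreed, and the direction of Apcdd1 depends on which is read. The authors' deposited table lists 3 of these genes, AXIN2 at -0.503, APCDD1 at -0.52 and RNF43 at -0.603, in the sign opposite to the scanner means of 0.50, 0.52 and 0.60.

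Sp5, a zinc finger transcription factor and early Wnt target that represses other targets, had the highest mean of the set and the widest spread. Its signal was 888, 292, 671 and 771 in the RNAs labelled wild type and 984, 727, 1073 and 1143 in those labelled mutant. The ratios were 0.15, 1.32, 0.68 and 0.57, a mean of 0.68 ± 0.48 (SD, n = 4; limma, adjusted p = 0.693; exact permutation p = 0.125), or 1.60-fold. The highest ratio was that of replicate 2, where the RNA labelled wild type had its lowest signal. Without that replicate the mean was 0.46, and 0.35 after normexp and loess as well.

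Tnfrsf19 (Troy), a receptor of the tumour necrosis factor family found on Wnt-responsive stem cells, was higher in the RNA labelled mutant in each replicate. Its signal was 2014, 1234, 2059 and 2777 in the RNAs labelled wild type and 2395, 1916, 2664 and 3237 in those labelled mutant. The ratios were 0.25, 0.63, 0.37 and 0.22, a mean of 0.37 ± 0.19 (SD, n = 4; limma, adjusted p = 0.706; exact permutation p = 0.125), or 1.29-fold. In each replicate the array with the RNA labelled mutant in Cy3 read higher, at 0.45, 0.95, 0.47 and 0.37 against 0.054, 0.32, 0.27 and 0.071 in Cy5.

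In order of mean ratio, Sp5, Rnf43, Notum, Axin2, Tnfrsf19 and Lgr5 came first, followed by Dkk1, Nkd1, Znrf3 and Apcdd1. Neighbours in this order were closer to each other than the SD of either, except Znrf3 and Apcdd1, which were farther apart than the SD of Znrf3. Replicate by replicate, 10, 9, 10 and 8 of the 11 member probes were above 0. Their median was 0.25, 0.60, 0.37 and 0.22, while the median of all probes was -0.00099, 0.093, 0.025 and 0.042. The 2 replicates of slide 1 gave a member median of 0.47 and those of slide 2 one of 0.18, with 10 of 11 above 0 on each slide.

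**Figure D3:**
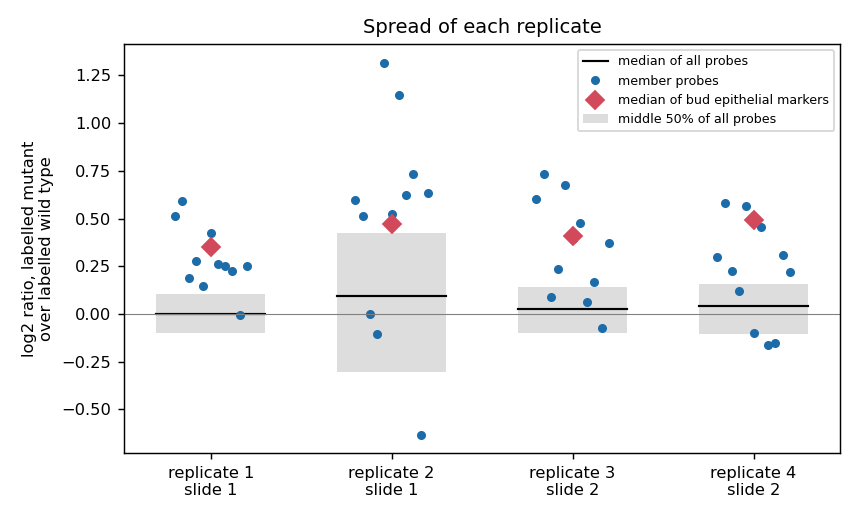
The vertical axis is the log2 ratio, and for each replicate the grey box spans the middle 50% of all probes, the black line is their median, dots are member probes and the diamond is the median of 18 bud epithelial markers. The box of replicate 2 is the tallest (0.729), and the marker median lies between 0.35 and 0.49 in every replicate.

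The rest of the pathway was read through 5 gene lists with 1 probe a gene, and no gene of any list passed limma's adjusted threshold of 0.05. Over all 17114 named genes 708 were higher and 333 lower at an unadjusted p under 0.05, with a median of 0.04. These were 4.14% and 1.95% of them, and 58.4% of all named genes had a mean above 0. Of 22 other target genes tested (of 25), 18 were above 0, 3 were higher at an unadjusted p under 0.05 and 0 lower, with a median of 0.15. Lef1, a beta-catenin partner and itself a target, stood at 0.40, 0.60, 0.50 and 0.47, a mean of 0.49 ± 0.08 (SD, n = 4; limma, adjusted p = 0.372). All 4 replicates were above 0, with an SD close to that of Rnf43. Tcf7, which encodes another such partner, stood at 0.27, 0.86, 0.36 and 0.57, a mean of 0.51 ± 0.26 (SD, n = 4; limma, adjusted p = 0.584), and its other probe at 0.22. Ephb2, a receptor that sorts cells along epithelia, stood at 0.094, 0.95, 0.26 and 0.27, a mean of 0.40 ± 0.38 (SD, n = 4), and 0.13 with its other probe. Its mean was 0.21 without replicate 2.

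Of the 19 Wnt ligands 11 were above 0, 4 were higher at an unadjusted p under 0.05 and 0 lower, with a median of 0.15. Their share above 0 was thus close to that of all named genes. Wnt10a stood at 0.62, 0.87, 0.56 and 0.86, a mean of 0.73 ± 0.16 (SD, n = 4; limma, adjusted p = 0.194). Wnt2 had a mean of 0.52 ± 0.26 and Wnt11, a ligand of the bud tip, one of 0.42 ± 0.20 (SD, n = 4 each). All 3 were above 0 in every replicate.

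Of 23 receptors and R-spondins tested (of 24), 16 were above 0, 3 were higher at an unadjusted p under 0.05 and 0 lower, with a median of 0.09. The Frizzled receptor gene Fzd10 stood at 0.80, 0.65, 0.52 and 0.86, a mean of 0.71 ± 0.15 (SD, n = 4; limma, adjusted p = 0.194), but its other probe at -0.04. The probes of Fzd10 thus disagreed. Kremen2, a receptor for Dkk proteins, had a mean of 0.42 ± 0.19 and Fzd4 one of 0.25 ± 0.14 (SD, n = 4 each). Lgr4, the broadly expressed relative of Lgr5, stood at 0.36, 0.30, 0.20 and -0.011, a mean of 0.21 ± 0.16 (SD, n = 4), while its 3 probes ranged from -0.25 to 0.21. Like Lgr5 it was lowest in replicate 4. The means of Rspo1, Rspo2, Rspo3 and Rspo4, the ligands of these receptors, were -0.16 ± 0.19, 0.088 ± 0.26, -0.43 ± 0.65 and -0.11 ± 0.66 (SD, n = 4 each), and that of the co-receptor gene Lrp5 was 0.093 ± 0.32 (SD, n = 4). For each of these 5 the SD was larger than the size of the mean. Without replicate 2, Rspo1 and Rspo3 stood at -0.071 and -0.69, and Rspo2, Rspo4 and Lrp5 at -0.042, 0.22 and -0.026, each of the last 3 with its sign changed.

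Among 12 other secreted antagonists tested (of 13), 8 were above 0, with 1 higher and 1 lower at an unadjusted p under 0.05 and a median of 0.07. Frzb, a decoy that binds Wnt ligands, had a mean of 0.55 ± 0.28, its relative Sfrp1 one of -0.28 ± 0.11 and Sfrp2 one of -0.16 ± 0.26 (SD, n = 4 each). Sfrp2 stood at -0.075 without replicate 2. In the destruction complex and nuclear factors, 14 of 26 genes tested (of 28) were above 0, 0 were higher and 3 lower at an unadjusted p under 0.05, and the median was 0.01. Here too the share above 0 did not exceed that of all named genes. Those 3 were Tcf7l1, a mostly repressive TCF factor, at -0.32 ± 0.09, the corepressor gene Tle2 at -0.27 ± 0.17 and the kinase gene Csnk1e at -0.33 ± 0.27 (SD, n = 4 each). For Csnk1e another probe stood at 0.23 and for Tcf7l1 another stood at -0.02. Axin1, the constitutive counterpart of Axin2, had a mean of 0.061 ± 0.36 (SD, n = 4), with 2 replicates on each side of 0.

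**Figure D4:**
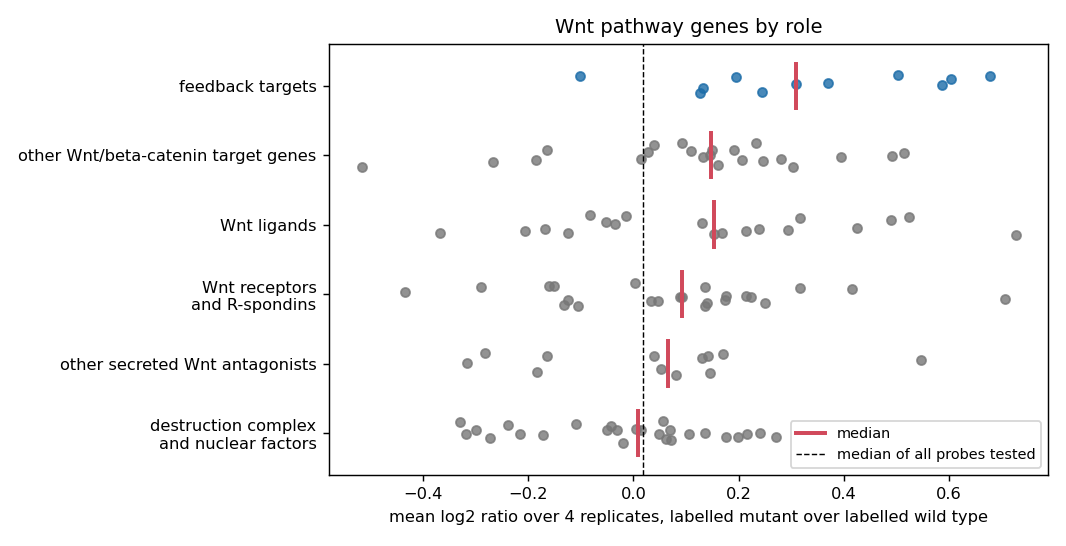
The horizontal axis is the mean log2 ratio over 4 replicates, each dot is 1 probe of a feedback target or 1 gene of a pathway list, the red bar is the median of its row and the dashed line the median of all probes (0.02). The feedback targets have a median of 0.31, the other targets and the Wnt ligands 0.15 each, and the destruction complex and nuclear factors 0.01.

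Markers of the bud epithelium lay mostly in the same direction as the members. All 18 were well above background, 15 were above 0, 12 were higher at an unadjusted p under 0.05 and 0 lower, with a median of 0.42. Their summed signal was 74366 to 137048 in the RNAs labelled mutant and 50881 to 75809 in those labelled wild type, and higher in the RNA labelled mutant in 4 of 4 replicates. Cdh16, a cadherin of tubule epithelium, stood at 1.43, 1.30, 1.61 and 1.65, a mean of 1.50 ± 0.16 (SD, n = 4; limma, adjusted p = 0.0420). The bud tip receptor gene Ret stood at -0.05 ± 0.28 and its co-receptor gene Gfra1 at -0.17 ± 0.41 (SD, n = 4 each). The other probe of Gfra1 stood at 0.22, so its direction depends on the probe. In the same list Wnt11 stood at 0.42 ± 0.20 and Etv5 at 0.083 ± 0.21 (SD, n = 4 each), with the other Etv5 probe at 0.48. The part of bud epithelial content in the ratios of the feedback targets was not tested.

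Markers of other cells were read in the same way, each list by its markers that were well above background on every array. Of 8 markers of committed nephron epithelium 7 were above 0 and 2 were higher at an unadjusted p under 0.05, with a median of 0.18. Their summed signal was 16650 to 27063 in the RNAs labelled mutant against 13021 to 23604, higher in the RNA labelled mutant in 4 of 4 replicates. Of 9 for nephron progenitors 2 were above 0 and 0 passed an unadjusted p under 0.05, with a median of -0.14 and sums of 42274 to 69427 against 42107 to 76509. The sum was lower in the RNA labelled mutant in 3 of 4 replicates.

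Of 10 stroma markers 2 were above 0 and 3 were lower at an unadjusted p under 0.05, with a median of -0.13 and sums of 132626 to 218634 against 142873 to 261843. Of 7 macrophage markers 1 was above 0, 3 were lower and 1 higher at an unadjusted p under 0.05, with a median of -0.28 and sums of 4331 to 5134 against 4835 to 5977. The higher one had 3 probes, from -0.67 to 0.53, so its direction depends on the probe. One of the 3 lower also had 3 probes, from -0.38 to 0.05. Of 3 markers of neural crest and neurons 0 were above 0 and 2 were lower at an unadjusted p under 0.05, Stmn2 at -0.71 ± 0.33 and Ngfr at -0.50 ± 0.28 (SD, n = 4 each), with sums of 6143 to 10675 against 10586 to 12995. The sums of stroma, macrophage and neural markers were lower in the RNA labelled mutant in 4 of 4 replicates. Of 6 endothelial markers 5 were above 0 and 1 was higher at an unadjusted p under 0.05, with a median of 0.05 and sums of 15345 to 23451 against 14561 to 24689. Of 5 erythroid markers 1 was above 0 and 0 passed an unadjusted p under 0.05, with a median of -0.12 and sums of 57247 to 105503 against 41563 to 155509. The part of these cell types in the ratios of the feedback targets was not tested either.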

How the data were processed

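The RNAs were compared on two-colour Agilent 4x44k arrays. Spot values were produced by the authors in Feature Extraction 10.5.1.1, per the file headers. Of the deposited intensity columns, those of median spot and background signal are unnormalized, while the processed signal has had its background subtracted and the dyes normalized. The log ratio per the file headers is a log10 value, Cy5 over Cy3, and it equalled the ratio of the processed signals within 0.001 on the log2 scale for 97.2% of values. Quality flags deposited for each spot take the values 0 or 1 and have no other unit. A further table that the authors deposited lists log2 ratios without a stated direction.

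Ratios were turned to labelled mutant over labelled wild type and put on the log2 scale, outlier-flagged spots were left out, spots of a probe were averaged, and the 2 dye orientations of each of the 4 replicates were averaged. The test took the 39520 of 41174 probes that were well above background, in either channel, on 4 or more of the 8 arrays. Accessions of 25097 probes matched a RefSeq symbol. Replicate ratios were tested against 0, two-sided, with limma 3.58.1 in R 4.3.3 (lmFit, eBayes) and Benjamini-Hochberg adjustment over all probes at 0.05. An exact sign-flip permutation test over 4 replicates served single probes. Genes of the lists were read by their probe of highest mean signal, and the text names the members, up to 3 genes of smallest p in each list and direct partners of members. A few cell type markers were named after their values were seen, and 1 marker gene is not reported here. The fit was checked on simulated ratios in which each probe had the same spread in all 4 replicates. That check does not cover the wider spread of replicate 2. The number of replicates, 4 with 2 arrays each, limits the precision.

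In separate channels, deviations of the mutant and wild type RNA of a replicate correlated at 0.572 to 0.780, and each of 4 matched its own partner best. Partners share arrays, so this pairing is by hybridisation, and the ratio keeps it. The members and lists were chosen with earlier results of these data known. The 19 alternatives covered background correction and normalization, filters, dyes, slides, weights, blocks and left-out replicates. The array design cites another genome build than the promoter table, so no probe positions are given.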

Additional observations from a re-analysis of the deposited data

Results flagged for a closer look

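The log2 ratio of Hdac2 in replicate 4, -0.61, lay far from those of the other replicates, 0.60, 0.60 and 0.74. That of Rspo2 in replicate 2, 0.48, lay far from -0.0097, -0.072 and -0.045 in replicates 1, 3 and 4. Each gap was larger than Dixon's 95% critical value for 4 values. Of 35 probes examined 2 passed it. The probes were chosen and share the same 4 replicates, so this count was not compared with chance. The cause of either gap was not tested.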

How the results depend on the processing

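Across the 19 alternatives, 10 or 11 of 11 member probes were above 0 (9 of 10 with 1 probe a gene), and their median lay between 0.18 (within slide 2) and 0.47 (within slide 1). Axin2 kept its direction with a mean of 0.42 to 0.57, Rnf43 with 0.54 to 0.69, Sp5 with 0.35 to 0.85, Notum with 0.24 to 0.74, Tnfrsf19 with 0.18 to 0.56 and Lgr5 with 0.15 to 0.47. The count of probes past limma's adjusted threshold moved far more than these values. Against 7, it was 1 with normexp and loess, 2 with no filter, 13 with the strict filter, 1 with the mutant in Cy5 only, 36 with it in Cy3 only, 462 with array weights, 452 within slide 2, 1 with slide as a term and 3 with 1 probe a gene. The 8 arrays with the replicate as a block gave 133. Separate channels without the replicate block gave 0 (400 at an unadjusted p under 0.05), and slide 1 alone 0 (758). Leaving out 1 replicate gave 0 to 10, with 0 without replicate 1 (2586 at an unadjusted p under 0.05), 3 (905) or 4 (1953). In settings chosen after seeing the data, scaling the replicates to 1 spread gave 0 (3289), and loess without replicate 2 gave 4. Of the members, these changed sign. Dkk1 A_51_P379069 stood at -0.139 in Cy3 only and -0.049 within slide 2. Apcdd1 stood at 0.025 in Cy3 only, 0.117 within slide 2, 0.0054 with loess without replicate 2, and between -0.238 and 0.076 with 1 replicate left out. Of the direct partners of members, Lrp5 stood at -0.099 in Cy5 only, -0.048 with array weights and -0.00085 with loess without replicate 2. With 1 replicate left out Lrp5 stood between -0.026 and 0.203. Axin1 stood at -0.058 in Cy5 only, -0.100 with array weights, -0.044 with scaled replicates, -0.035 with loess without replicate 2, and between -0.074 and 0.188 with 1 left out. Rspo1 stood at 0.014 in Cy3 only. Rspo2 stood at -0.201 in Cy3 only, -0.041 with array weights, -0.059 within slide 2, -0.0087 with loess without replicate 2, and between -0.042 and 0.141 with 1 left out. Rspo4 stood at 0.115 with array weights, 0.177 within slide 2, 0.106 with scaled replicates, 0.132 with loess without replicate 2, and between -0.242 and 0.219 with 1 left out. The cause was not tested. All member probes were well above background on 8 of 8 arrays. Whether dim signal bears on the lower mean of Notum with normexp and loess (0.35) was not tested.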
